A study of Mus musculus with 4 samples.

Results

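The 32 genes described here are the glucose and lactate carriers, the glycolytic enzymes and their regulators, the oxygen-sensing genes around Hif1a, and a set of known hypoxia targets. They were chosen by name from 28625 gene symbols, as carriers (Slc2a1, Slc2a3, Slc16a1 and Slc16a3), upper glycolysis (Hk1, Hk2, Gpi1, Pfkl, Pfkm, Pfkp, Aldoa, Aldoc and Tpi1), lower glycolysis (Gapdh, Pgk1, Pgam1, Eno1, Eno3, Pkm and Ldha), regulators (Pdk1 and Pfkfb3), oxygen sensing (Hif1a, Egln1 and Egln3) and other hypoxia targets (Bnip3, Bnip3l, Vegfa, P4ha1, Ero1l, Ndrg1 and Higd1a). They were followed across T cells and B cells of the mediastinal lymph node, the node that drains the lung, in 2 droplet single-cell RNA libraries with 3 mice each. Every mouse had received 10 µg of Alternaria alternata extract, a fungal allergen, together with 25 µg of the hapten-carrier protein NP-OVA through the nose, and its node was taken on day 7. The first library, called the Tfh sort, held TCRβ+ CD4+ CD44+ PD-1+ CXCR5+ cells of C57BL/6 mice, the surface phenotype of T follicular helper cells that help B cells in germinal centres. The second, called the reporter sort, held CD44+ CD4+ cells that were GFP positive in C57BL/6 4get mice, whose GFP reports transcription of the Il4 gene. After sorting, the cells of all mice spent 30 min with the phorbol ester PMA and the calcium ionophore ionomycin, so every level below is that of stimulated cells. No unimmunised or unstimulated group was among the samples, and the ages and sexes of the mice are not given in the sources used here. Mouse strain, library chemistry and sequencing run all differed with the sort, so the sorts were not tested against each other.

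Glycolysis turns glucose into pyruvate in the cytosol. Activated T cells raise it and send much of the pyruvate to lactate through Ldha, whose product leaves the cell through the monocarboxylate carriers Slc16a1 and Slc16a3. Pdk1 phosphorylates and inhibits pyruvate dehydrogenase, and so holds pyruvate back from the mitochondria. Hif1a is the oxygen-regulated subunit of a transcription factor. With oxygen present the prolyl hydroxylases Egln1 and Egln3 mark its protein for destruction, and in T cells signals through the antigen receptor and mTOR also raise it. Many glycolytic genes are among its known targets, as are Ero1l, an oxidase that drives disulfide bond formation in the endoplasmic reticulum, Ndrg1, a gene induced by stress and differentiation, and the mitophagy receptors Bnip3 and Bnip3l. The transcript of Hif1a says nothing by itself of the amount or activity of its protein.

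The core of the hypoxia response element, ACGTG or GCGTG read on either strand (so CACGT or CACGC on the printed strand), was looked up in the promoters of the members. RefSeq promoter windows of 300 bases, 250 before to 50 after each start on GRCm38.p6, were matched for 29 of the 32 members, and 27 of those 29 genes (93.1%) held a match in some window, against 46.7% of all 27025 genes in the table. Slc2a3, Bnip3l and Ndrg1 had no entry. The members were chosen in part as known hypoxia targets, and a gene with more windows had more chances of a match, so these shares are no test. The letters alone are no evidence of binding, and where CACGTG occurs a match on each strand overlaps the other and both were counted. The promoters of 4 members that the results below turn on are shown 5′ to 3′ on the coding strand of each gene, with matches in capitals. In the reporter sort Ldha and Ero1l were higher in Il13-positive and lower in Cxcr5-positive cells, and Aldoc and Bnip3 were higher in Cxcr5-positive cells.
Ldha, first of its windows, chr7:46845554-46845853, plus strand, 7 matches: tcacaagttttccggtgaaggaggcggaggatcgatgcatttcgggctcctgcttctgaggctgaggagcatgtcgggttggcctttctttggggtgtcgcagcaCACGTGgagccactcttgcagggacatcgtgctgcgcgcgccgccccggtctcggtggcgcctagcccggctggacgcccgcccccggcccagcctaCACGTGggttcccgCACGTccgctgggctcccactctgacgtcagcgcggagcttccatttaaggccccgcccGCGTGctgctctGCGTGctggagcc
Ero1l (RefSeq symbol Ero1a), chr14:45318523-45318822, minus strand, 3 matches: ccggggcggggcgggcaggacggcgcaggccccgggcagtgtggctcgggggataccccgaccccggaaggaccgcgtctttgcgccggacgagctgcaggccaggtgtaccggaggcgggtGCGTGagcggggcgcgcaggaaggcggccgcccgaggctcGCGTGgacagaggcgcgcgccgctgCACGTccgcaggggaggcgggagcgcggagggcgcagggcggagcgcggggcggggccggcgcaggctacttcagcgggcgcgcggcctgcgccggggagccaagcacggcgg
Aldoc, first of its windows, chr11:78322823-78323122, plus strand, 3 matches: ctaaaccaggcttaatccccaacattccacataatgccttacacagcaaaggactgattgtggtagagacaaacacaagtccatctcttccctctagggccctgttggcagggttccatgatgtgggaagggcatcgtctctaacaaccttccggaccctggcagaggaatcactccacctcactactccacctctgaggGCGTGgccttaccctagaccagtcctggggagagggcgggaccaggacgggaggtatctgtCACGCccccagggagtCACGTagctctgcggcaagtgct
Bnip3, chr7:138909457-138909756, minus strand, 5 matches: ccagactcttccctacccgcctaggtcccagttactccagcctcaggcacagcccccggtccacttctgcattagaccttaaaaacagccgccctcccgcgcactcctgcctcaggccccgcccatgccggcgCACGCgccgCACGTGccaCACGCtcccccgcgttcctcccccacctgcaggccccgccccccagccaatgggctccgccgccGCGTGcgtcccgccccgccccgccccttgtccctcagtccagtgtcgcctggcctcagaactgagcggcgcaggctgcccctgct

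Of 3956 barcodes in the Tfh sort and 7646 in the reporter sort, 3916 and 4585 passed the limits of 500 genes and 10% mitochondrial UMIs, and 3780 and 3989 could be given to 1 mouse by its hashtag antibody. Totals per mouse ran from 3378446 to 5434703 UMIs (unique molecular identifiers, 1 per captured transcript) in the Tfh sort and from 12024433 to 15123654 in the reporter sort, and no barcode was shared between the sorts. T cells were taken as cells with a Cd3d, Cd3e or Cd3g UMI and no Cd79a UMI, and B cells as cells with 2 or more Cd79a UMIs. This gave 3038 T and 562 B cells in the Tfh sort, and 3639 T and 250 B cells in the reporter sort, although both gates were set on CD4+ cells. Cells from different mice caught together were removed by the hashtag rule, but 2 cells of the same mouse in 1 droplet were not, and 222 of the 562 and 133 of the 250 B cells carried a Cd3 UMI.

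In T cells the module was dominated by a few enzymes. Levels are given as CPM, the UMIs of a gene scaled to the UMI total of the same cells, as mean ± SD over 3 mice. A UMI is caught at 1 end of a transcript, so levels were not scaled by length, and differences between genes in capture were not corrected. Gapdh was at 1557 ± 57.2 in the Tfh sort and 1832 ± 39.2 in the reporter sort. Pkm, the last ATP-yielding enzyme, was at 1465 ± 42.1 and 657 ± 14.5, and Ldha at 1287 ± 37.2 and 864 ± 23.7. By their means Gapdh, Pkm, Ldha and Aldoa led in that order in the Tfh sort, and Gapdh, Ldha, Pkm and Aldoa in the reporter sort. Neighbours in these orders did not overlap over the mice, except Gapdh and Pkm in the Tfh sort, at 1503 to 1617 and 1440 to 1514. Together the 16 enzymes of upper and lower glycolysis made up 0.690 ± 0.0105% of T-cell UMIs in the Tfh sort and 0.50 ± 0.0101% in the reporter sort. Carriers were far lower: Slc16a1 was at 33.2 ± 5.74 and 28.9 ± 2.94, Slc2a1 (the GLUT1 glucose carrier) at 23.4 ± 0.639 and 18.1 ± 0.778, and Slc2a3 at 7.45 ± 1.47 and 10.1 ± 1.45. Vegfa, the angiogenic factor, had 7 UMIs in T cells of the Tfh sort and 22 in those of the reporter sort and was tested in no comparison. Gapdh, Eno1, Pgam1, Tpi1, Ldha and other members have processed pseudogenes or near-identical copies, so that the split of reads between copies is uncertain for them.

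**Figure D1:**
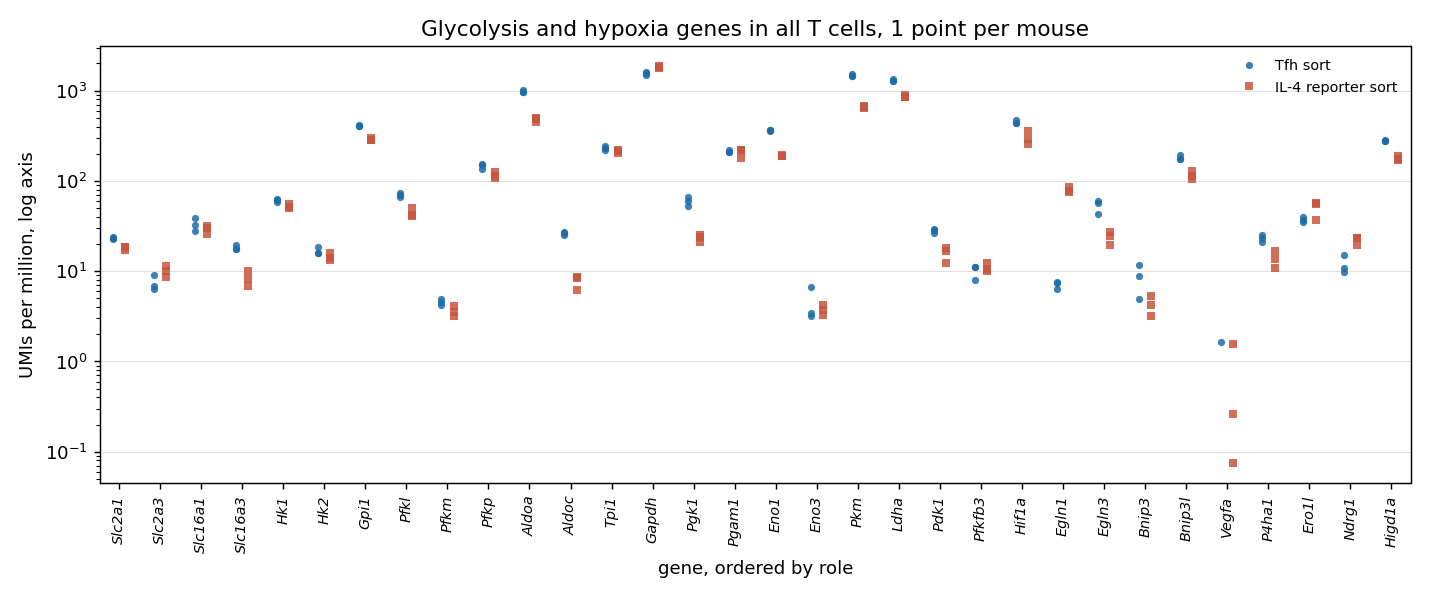
Levels of the 32 genes in T cells (CPM, log axis), 1 point per mouse and sort. The 3 mice of a sort lie close together for the abundant enzymes, while Egln1 and Egln3 stand in opposite order in the 2 sorts, and Vegfa is not drawn for the 2 Tfh-sort mice that had 0 UMIs.

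Most families of isoforms were read from 1 dominant gene. Hk1 made up 78.5 ± 2.03% of Hk1 and Hk2 UMIs in Tfh-sort T cells, Pfkp 66.4 ± 0.644% of the phosphofructokinase UMIs, Aldoa 97.4 ± 0.161% of the aldolase UMIs, and Bnip3l 95.6 ± 1.49% of Bnip3 and Bnip3l. The prolyl hydroxylases stood in opposite order in the 2 libraries. Egln1 was at 7.17 ± 0.666 CPM in the Tfh sort and 80.2 ± 5.51 in the reporter sort, and Egln3 at 53.5 ± 9.36 and 23.6 ± 3.73. Egln3 was thus 88.1 ± 0.999% of the pair's UMIs in the first and 22.8 ± 3.92% in the second. Strain, chemistry and run cannot be told apart from the sort in these values.

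Cells with more UMIs held a larger share of glycolytic transcripts. When the T cells of each mouse were cut into quintiles by their UMI total, the 16 enzymes went in share from 0.473 ± 0.00477% in the lowest quintile to 0.828 ± 0.0145% in the highest in the Tfh sort, and from 0.302 ± 0.0281% to 0.636 ± 0.00722% in the reporter sort. Tpi1, which interconverts the triose phosphates, had the largest ratio between the highest and the lowest quintile of the genes plotted, going from 99.3 ± 8.27 to 348 ± 27.1 CPM in the Tfh sort and from 93.7 ± 26.3 to 305 ± 6.14 in the reporter sort. The opposite course was seen for Pdk1, at 44.7 ± 7.77 in the lowest and 21.6 ± 3.44 in the highest quintile of the Tfh sort and at 32.7 ± 8.51 and 8.31 ± 2.54 in the reporter sort. Hif1a was at 447 ± 28.5 and 397 ± 29.2 in the Tfh sort, and at 415 ± 106 and 224 ± 30.6 in the reporter sort. The share of cells with 2 or more Mki67 and Top2a UMIs went from 1.45% to 45.4% in the Tfh sort and from 6.32% to 71.3% in the reporter sort, and its part in these courses was not tested. These are descriptions with no test.

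**Figure D2:**
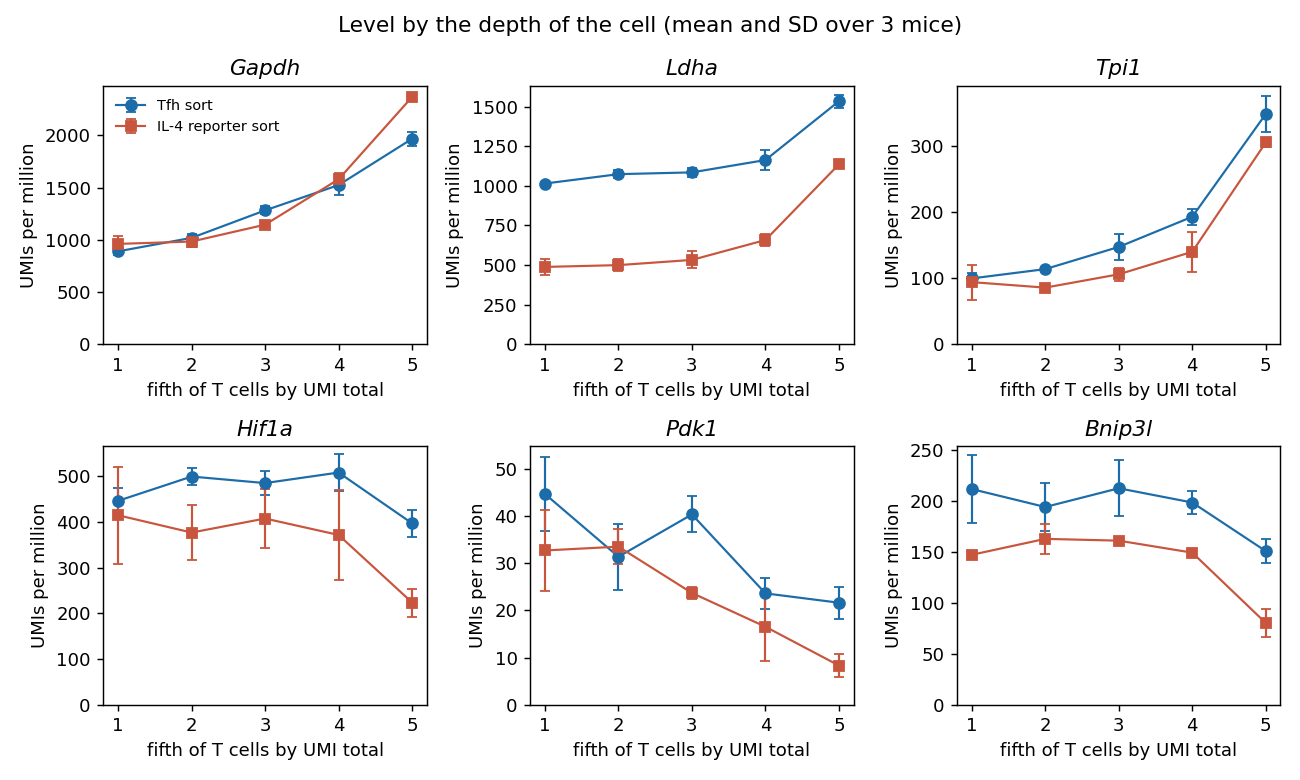
Levels of 6 genes (CPM, mean ± SD over 3 mice) in T cells cut into quintiles by UMI total within each mouse, for each sort. Gapdh, Ldha and Tpi1 are highest and Pdk1 lowest in the quintile with the most UMIs.

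A cell picked by the UMIs of 1 gene is a deep cell on average, so each class of positive cells was compared with T cells of the same mouse that had none of the gene's UMIs and were drawn in bins of UMI total to match it. Where a bin held too few of these T cells, positive cells of the bin were left out too, which lowered the median depth of some classes. A cell was positive with 2 or more UMIs of Il13, Il4, Il21, Gata3 or Cxcr5, with 1 or more of Foxp3, and counted as cycling with 2 or more of Mki67 and Top2a together. UMIs were summed per mouse and class and tested with edgeR's quasi-likelihood test with the mouse as a block. Genes were tested only above a count limit, which the sums of 1 class alone could meet. Some tested genes were therefore scarce in the other class. Values below are CPM, here scaled by edgeR's TMM factors, of mice 1, 2 and 3, differences are log2 ± SE, and p-values were adjusted by Benjamini-Hochberg over all genes tested. The comparisons of a sort draw on the same T cells and are not independent of each other. All 3 mice of a sort shared 1 lane, and the mouse is the replicate.

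Il13-positive cells of the reporter sort carried more transcript of several glycolytic enzymes and of 2 hypoxia targets, and less Hif1a and Pdk1, than T cells of equal depth without Il13. Il13 is a cytokine of T helper 2 cells, and 188, 183 and 148 of 243, 249 and 170 positive cells entered the sums. Of 28 members tested 10 were called, 7 higher and 3 lower, in a comparison in which 15.5% of all genes were called, 8.68% higher and 6.87% lower. The median difference over the tested members was 0.16, against 0.02 over all genes.

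Ndrg1 was at 50.2, 42.1 and 56.6 CPM in Il13-positive cells and at 5.34, 15.6 and 12.8 CPM in their references, a difference of 2.13 ± 0.24 (edgeR adjusted p = 4.03e-05). Ero1l was at 124, 99.6 and 58.6 against 32.5, 22.8 and 19.6 CPM, a difference of 1.89 ± 0.15 (edgeR adjusted p = 1.92e-06). Both hypoxia targets were higher in each mouse, with no overlap between the groups. Of the carriers, Slc2a3 (the GLUT3 glucose carrier) rose from 5.79, 8.01 and 5.21 to 18.7, 17.5 and 12 CPM, by 1.32 ± 0.25 (edgeR adjusted p = 0.0025). Slc2a1 differed by 0.44 ± 0.20 and was not called (edgeR adjusted p = 0.16). Among the enzymes, Eno1 (enolase) stood at 284, 234 and 306 against 150, 157 and 173 CPM, a rise of 0.77 ± 0.11 (edgeR adjusted p = 0.000374).

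Ldha, at 1181, 1089 and 1239 against 789, 775 and 873 CPM, rose by 0.53 ± 0.09 (edgeR adjusted p = 0.0014). Aldoa, which splits fructose bisphosphate, rose by 0.49 ± 0.10 (edgeR adjusted p = 0.00486) and Tpi1 by 0.36 ± 0.10 (edgeR adjusted p = 0.0299). The groups overlapped for Tpi1 but not for Aldoa. The minor aldolase Aldoc, at 7.11, 6.75 and 3.23 against 7.12, 11.4 and 6.42 CPM, was not called (edgeR adjusted p = 0.243), and Eno3 had too few UMIs to be tested. Summed over the 16 enzymes, Il13-positive cells had 6136 ± 387 CPM and their references 5042 ± 323 CPM. The gains thus lay on several steps from Aldoa to Ldha, while 12 of the 16 enzymes were not called or not tested.

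Hif1a itself was lower, at 178, 194 and 177 CPM against 366, 284 and 344 CPM, a fall of 0.85 on the log2 scale (SE 0.12, edgeR adjusted p = 0.000249). Pdk1 fell from 16.9, 9.27 and 12 to 8, 4.76 and 6.16 CPM, a difference of -1.0 ± 0.26 (edgeR adjusted p = 0.0164). The groups did not overlap for either gene. Bnip3l had 112, 82.5 and 70.1 against 133, 133 and 95.0 CPM, a difference of -0.46 ± 0.12 with overlapping groups (edgeR adjusted p = 0.0214), and its partner Bnip3 was too low to test. Cycling cells made up 36.7%, 44.8% and 54.7% of the positive cells and 29.8%, 32.8% and 50.7% of their references. Without cycling cells Eno1 (0.64), Ldha (0.64), Aldoa (0.54), Ero1l (2.11), Ndrg1 (2.41) and Hif1a (-0.68) were still called, Tpi1 (0.34, edgeR adjusted p = 0.23) and Bnip3l (-0.37, edgeR adjusted p = 0.10) were not, and Slc2a3 and Pdk1 had too few UMIs. Median mitochondrial shares were 4.6%, 4.83% and 4.56% against 5.32%, 5.33% and 4.83%, and at the 5% limit Tpi1 (0.16, edgeR adjusted p = 0.296) and Bnip3l (-0.28, edgeR adjusted p = 0.123) were not called. The CD8 markers Cd8a and Cd8b1 summed to 4.40 to 8.44 CPM in positive cells and to 18.4 to 45 CPM in references, and their part in the differences was not tested. Without mouse 2 the edgeR adjusted p rose to 0.094 for Ldha, 0.17 for Aldoa, 0.065 for Pdk1, 0.31 for Tpi1 and 0.36 for Bnip3l, and without mouse 3 to 0.072, 0.10 and 0.092 for Pdk1, Tpi1 and Bnip3l.

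The share of cells with a UMI was also taken, over all Il13-positive cells and all T cells without Il13 UMIs. These cells were not drawn to equal depth, so the shares are another contrast than the sums. Cycling cells made up 48.1%, 56.6% and 60.6% of all Il13-positive cells and 12.7%, 15.4% and 16.3% of the others, and their part in the shares was not tested. After each cell was thinned to 2000 UMIs, 17.4 ± 2.67% of Il13-positive cells had an Ero1l UMI against 4.78 ± 1.64% of T cells without Il13 UMIs, and 8.70 ± 2.90% against 0.748 ± 0.126% had an Ndrg1 UMI. Of the positive cells 12, and of the others 265, were shallower and left out. Without thinning the shares were 60.0% to 65.5% against 15.5% to 16% for Ero1l, 31.7% to 45.3% against 3.54% to 4.03% for Ndrg1, and 74.9% to 83.9% against 71.7% to 75.4% for Hif1a. Hif1a went the other way, with a UMI in 27.8 ± 2.64% of thinned Il13-positive cells against 45.2 ± 4.39% of the others. No class of cells here could be taken to lack these transcripts, so the share that free RNA gives was not measured.

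Around the module, 28 further hypoxia and HIF-pathway genes were followed, of which 18 could be tested in the Il13 comparison of the reporter sort, where 6 rose and 1 fell. Epas1, which encodes the HIF-2α subunit, rose from 26.0 ± 8.26 to 84.2 ± 33.7 CPM (1.63 ± 0.21, edgeR adjusted p = 0.000125). Bhlhe40, a transcriptional repressor, rose by 0.74 ± 0.13 (edgeR adjusted p = 0.00197), Anxa2, a membrane-binding annexin, by 0.89 ± 0.17 (edgeR adjusted p = 0.00243), and Ankrd37 by 0.76 ± 0.18 (edgeR adjusted p = 0.0107). The list of other glycolysis isoforms and side enzymes had 2 genes higher and 3 lower of 13 tested. Ldhb, the lactate dehydrogenase subunit that pairs with Ldha, fell by 1.15 (SE 0.22, edgeR adjusted p = 0.00272), while Bsg, the chaperone of the monocarboxylate carriers, rose by 0.55 ± 0.11 (edgeR adjusted p = 0.00397), and Slc16a6 by 1.24 ± 0.22 (edgeR adjusted p = 0.00171). The muscle isoform Pgam2 was lower, with 5 UMIs in positive cells and 48 in references. Txnip, which restrains glucose uptake, fell by 1.12 (SE 0.18, edgeR adjusted p = 0.000657). Of 24 genes of pyruvate entry and the citrate cycle 4 rose and none fell, led by Idh3a at 0.77 ± 0.12 (edgeR adjusted p = 0.000507), and of 10 pentose phosphate genes 1 rose, Prps1.

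**Figure D3:**
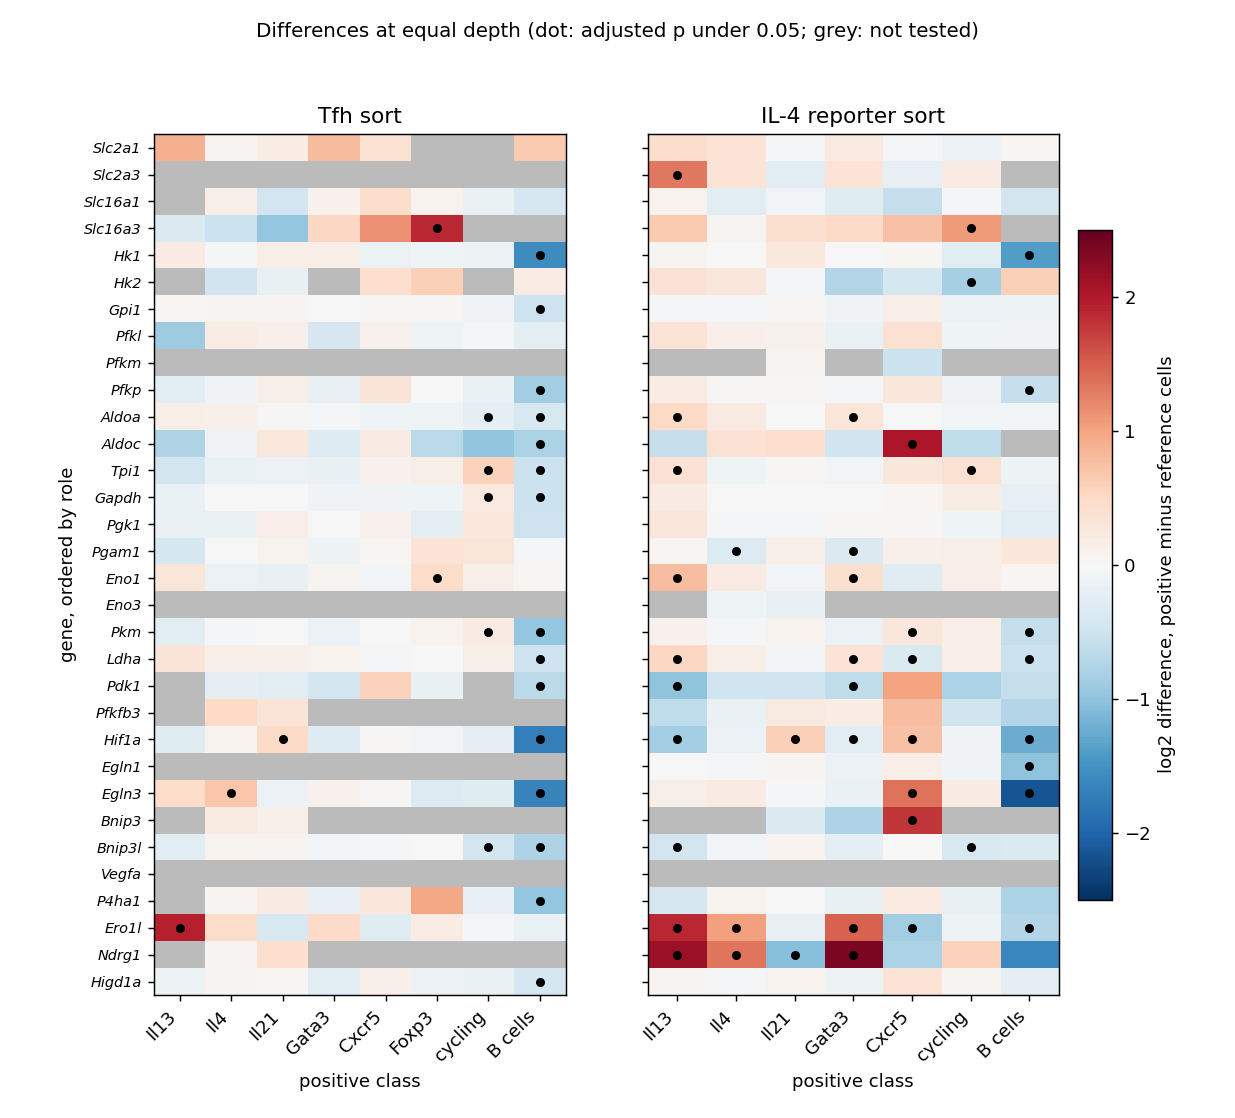
Differences (log2, positive minus reference) of the 32 genes, in rows, in each comparison of each sort, in columns, with a dot where the edgeR adjusted p is under 0.05 and grey where a gene was not tested. The 2 B-cell columns hold mostly negative values, Ero1l and Ndrg1 are positive for Il13, Il4 and Gata3 in the reporter sort, and Hif1a is negative for Il13 and Gata3 there but positive for Il21 and Cxcr5.

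The Tfh sort had only 26, 33 and 11 Il13-positive cells, where 3.72% of all genes were called, 2.98% higher and 0.734% lower, and of 20 members tested 1 passed. That member was Ero1l, at 171, 130 and 60.5 CPM in Il13-positive cells against 27.2, 41.1 and 34.4 CPM, with no overlap between the groups. The rise was 1.93 ± 0.32 (edgeR adjusted p = 0.000249), and without mouse 1 it was 1.45 with an edgeR adjusted p of 0.31. Summed over the 16 enzymes, Il13-positive cells had 7518 ± 101 CPM and their references 7651 ± 193 CPM. Ldha differed by 0.32 ± 0.10 and was not called (edgeR adjusted p = 0.0943). Nor was Tpi1, at -0.46 ± 0.17 (edgeR adjusted p = 0.18), where the value in the reporter sort was 0.36. Ndrg1, Slc2a3 and Pdk1 had too few UMIs to be tested. Of the further hypoxia genes 3 of 10 rose and 1 fell: Epas1 at 59.5 ± 14.1 against 4.20 ± 2.15 CPM (3.64 ± 0.44, edgeR adjusted p = 4.65e-06), Bhlhe40 (1.68 ± 0.13), Anxa2 (1.69 ± 0.17) and Mif, a cytokine and known HIF target (-0.76 ± 0.12). Epas1 was scarce in the references, so it could meet the count limit through the Il13-positive sums alone. Summed macrophage markers (6 genes) were at 0 to 6.59 CPM in the Il13-positive cells and at 61.3 to 392 CPM in their references. The part of this in the differences was not tested, and Ero1l was still called when macrophage transcripts were left out.

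Gata3, the master regulator of T helper 2 cells, marked a similar set of genes in the reporter sort. Depth matching used 280, 203 and 261 of 467, 403 and 459 Gata3-positive cells. The median of the cells used was 7133, 7039 and 7216 UMIs, against 9124, 10802 and 11118 over all Gata3-positive cells. Among the cells used, 8 of 29 members were called, 5 higher and 3 lower, where 9.93% of all genes were, 6.02% higher and 3.91% lower. Ndrg1 was at 23.7, 26.4 and 28.6 CPM in Gata3-positive cells and at 7.01, 4.06 and 3.85 CPM in references (2.35 ± 0.26, edgeR adjusted p = 3.91e-07). Ero1l was at 74.1, 54.7 and 45.7 against 23.4, 21.0 and 18.8 CPM (1.47 ± 0.15, edgeR adjusted p = 1.36e-07). Neither gene's groups overlapped, and both were called in all 16 alternatives. Enzymes rose by less: Ldha by 0.34 ± 0.06 (edgeR adjusted p = 0.000397), Aldoa by 0.31 ± 0.07 (edgeR adjusted p = 0.00259) and Eno1, whose groups overlapped, by 0.39 ± 0.09 (edgeR adjusted p = 0.00267). Aldoc was not called (-0.50 ± 0.26, edgeR adjusted p = 0.307). Summed over the 16 enzymes, Gata3-positive cells had 4161 ± 208 CPM and their references 4029 ± 335 CPM. The groups overlapped, and mouse 3 went the other way, at 4097 against 4270 CPM. Median mitochondrial shares were lower in Gata3-positive cells, at 5.26%, 5.48% and 5.29% against 5.79%, 5.82% and 5.84%. At the 5% mitochondrial limit Ldha (0.28, edgeR adjusted p = 0.0533), Aldoa (0.28, edgeR adjusted p = 0.232), Hif1a, Pgam1 and Pdk1 were not called, and 3 calls were left. Aldoa was 0.11 at a limit of 1 Gata3 UMI (edgeR adjusted p = 0.355), and DESeq2 called neither Aldoa (adjusted p = 0.0534) nor Eno1 (adjusted p = 0.234).

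In the Gata3-positive cells 3 members fell. Pgam1, which moves the phosphate of phosphoglycerate, was at 125, 124 and 138 against 169, 141 and 184 CPM (-0.36 ± 0.09, edgeR adjusted p = 0.00549). Pdk1 was at 13.4, 12.6 and 19.8 against 26.6, 21.0 and 23.6 CPM (-0.63 ± 0.20, edgeR adjusted p = 0.0477), and Hif1a at 318, 311 and 383 against 383, 367 and 472 CPM with overlap between mice (-0.27 ± 0.07, edgeR adjusted p = 0.00701). These were the less stable calls: without mouse 1 the edgeR adjusted p was 0.41 for Pdk1, 0.064 for Hif1a and 0.091 for Pgam1, without mouse 2 it was 0.20 for Pdk1, and without mouse 3 it was 0.07 for Hif1a. Pgam1 turned to 0.68 (edgeR adjusted p = 8.54e-06) without depth matching. DESeq2 called none of the 3, with adjusted p of 0.966 for Pdk1, 0.358 for Pgam1 and 0.167 for Hif1a. Without cycling cells Hif1a (-0.07, edgeR adjusted p = 0.76) and Pgam1 (-0.28, edgeR adjusted p = 0.12) were not called. Of the further hypoxia genes 5 of 18 rose and 1 fell, led by Epas1 (1.86 ± 0.16), Bhlhe40 (0.66 ± 0.09), Anxa2 (0.69 ± 0.14) and, lower, Mif (-0.53 ± 0.07). The CD8 markers summed to 6.92 to 11.1 CPM in Gata3-positive cells and to 44.7 to 78.1 CPM in references, and cycling cells made up 17.9%, 23.6% and 19.5% against 13.6%, 11.8% and 14.2%. Their part in the differences was not tested. In the Tfh sort, with 111, 104 and 68 Gata3-positive cells, none of 23 members was called by edgeR or by DESeq2. There edgeR called 0.513% of all genes, 0.371% higher and 0.141% lower.

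Ndrg1 and Ero1l were higher in Il4-positive cells of the reporter sort. Il4 encodes the cytokine that drives T helper 2 cells and class switching to IgE, and in the reporter sort every sorted cell carried the GFP of the Il4 reporter, whether or not an Il4 UMI was caught. There 3 of 29 members were called, 2 higher and 1 lower, against 4.45% of all genes, 3.39% higher and 1.06% lower. Ndrg1 was at 46.6, 42.8 and 32 against 10.3, 17.9 and 18.4 CPM, without overlap (1.33 ± 0.20, edgeR adjusted p = 0.0011). Ero1l was at 138, 97.2 and 37.9 against 43.3, 45.6 and 35.9 CPM (1.02 ± 0.19, edgeR adjusted p = 0.00491). The groups overlapped, mouse 3 showed almost none of the difference, and without mouse 2 the edgeR adjusted p was 0.17. DESeq2 did not call Ero1l (adjusted p = 0.693), nor did the edgeR fit with no replicate block (adjusted p = 0.194). Pgam1, at 158, 243 and 256 against 251, 270 and 306 CPM, was lower by a margin at the threshold (-0.34 ± 0.09, edgeR adjusted p = 0.0497) that was lost without any 1 of the mice, with edgeR adjusted p of 0.37, 0.12 and 0.18 without mice 1, 2 and 3. Of the further hypoxia genes 4 of 18 rose and 1 fell, among them Epas1 (1.36 ± 0.18), Ddit4, an inhibitor of mTORC1 (1.13 ± 0.21), and Cited2, a competitor of HIF for its coactivator (0.55 ± 0.10).

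Among Tfh-sort cells 1 of 27 members passed for Il4, where 4.29% of all genes did, 1.85% higher and 2.44% lower. Egln3 was at 48.7, 75.6 and 77.2 CPM in Il4-positive cells and at 33.3, 46.3 and 41.5 CPM in references, higher in every mouse and without overlap (0.70 ± 0.16, edgeR adjusted p = 0.00747). Its partner Egln1 had 16 UMIs in positive cells and 26 in references and was not tested. The call for Egln3 was kept in 10 of 15 alternatives, in which the difference ran from 0.44 to 0.78. Cited2 (0.37 ± 0.08) and Phgdh, the first enzyme of serine synthesis (0.33 ± 0.10), rose beside it, and Myc (-0.42 ± 0.09) and Mif (-0.20 ± 0.05) fell. Summed macrophage markers were at 5.24 to 27.9 CPM in Il4-positive cells and at 122 to 330 CPM in references, CD8 markers at 1.31 to 5.69 and at 31.4 to 74.6 CPM, and their part in the differences was not tested. Without cycling cells Egln3 was at 0.58 (edgeR adjusted p = 0.089).

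Il21, the cytokine by which follicular helper cells drive B cells, went with more Hif1a in each sort. In the Tfh sort 1 of 27 members was called, beside 3.43% of all genes (2.17% higher and 1.26% lower): Hif1a at 508, 504 and 580 CPM in Il21-positive cells and at 357, 373 and 419 CPM in references (0.47 ± 0.07, edgeR adjusted p = 0.000203). In the reporter sort 2 of 31 members were called, beside 5.11% of all genes, 2.91% higher and 2.2% lower. Hif1a was at 355, 286 and 392 against 223, 196 and 259 CPM (0.60 ± 0.06, edgeR adjusted p = 5.43e-07), without overlap between the groups in either sort. Ndrg1 was lower, at 15.6, 16.4 and 15.8 against 28.5, 38.6 and 33.5 CPM (-1.07 ± 0.13, edgeR adjusted p = 1.43e-05), and without cycling cells it was at -0.88 (edgeR adjusted p = 0.0695). No glycolytic enzyme, carrier or regulator passed in either sort. Bhlhe40 rose with Il21 in both sorts, by 0.44 ± 0.08 (edgeR adjusted p = 0.00126) and 0.59 ± 0.06 (edgeR adjusted p = 2.02e-06). The Hif1a call in the Tfh sort held in all 16 alternatives, and that in the reporter sort in 15, the exception being the fit with no replicate block (0.60, edgeR adjusted p = 0.0836).

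Cxcr5, the chemokine receptor that leads follicular helper cells to B-cell follicles, picked 67, 59 and 91 cells of the reporter sort. These had more Hif1a, Egln3, Aldoc and Bnip3, and less Ldha and Ero1l, than T cells of equal depth without Cxcr5 UMIs. In all 7 of 30 members were called, 5 higher and 2 lower, beside 9.47% of all genes, 4.16% higher and 5.32% lower. Aldoc, the aldolase best known from brain, was at 38.4, 21.5 and 22.5 against 8.38, 7.99 and 4.32 CPM (2.02 ± 0.27, edgeR adjusted p = 0.000152). Its share of aldolase UMIs was 5.26 ± 1.45% in Cxcr5-positive cells, on 60 Aldoc UMIs, and 1.17 ± 0.351% in T cells without Cxcr5 UMIs, while the major aldolase Aldoa was not called (-0.01 ± 0.07, edgeR adjusted p = 0.973). Bnip3, at 18.4, 7.68 and 14.7 against 6.95, 2.05 and 3.36 CPM, rose by 1.78 ± 0.36 (edgeR adjusted p = 0.00518), and Bnip3l was not called (0.02 ± 0.11, edgeR adjusted p = 0.959).

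Egln3 was at 85.1, 33.8 and 34.3 CPM in Cxcr5-positive cells and at 20.9, 21.9 and 15.2 CPM in references (1.35 ± 0.23, edgeR adjusted p = 0.00155), and Egln1 was not called (0.16 ± 0.13, edgeR adjusted p = 0.524). Hif1a was at 529, 387 and 569 against 300, 270 and 321 CPM (0.73 ± 0.09, edgeR adjusted p = 4.55e-05), and was called in all 16 alternatives. Ldha fell from 878, 914 and 891 to 652, 734 and 709 CPM (-0.36 ± 0.06, edgeR adjusted p = 0.00215), with the groups apart. Ero1l, at 38.4, 32.3 and 20.6 against 66.8, 61.3 and 37.7 CPM, was lower in each mouse but overlapped between mice (-0.86 ± 0.17, edgeR adjusted p = 0.00477), and it was not called without cycling cells (-0.71, edgeR adjusted p = 0.13). Pkm rose by 0.28 ± 0.08 (edgeR adjusted p = 0.0321), a call lost without mouse 1 (0.16, edgeR adjusted p = 0.42), and the Bnip3 call was lost without mouse 3 (1.54, edgeR adjusted p = 0.057). Median mitochondrial shares were higher in Cxcr5-positive cells, at 5.96%, 5.92% and 6.13% against 5.18%, 5.44% and 5.29%. At the 5% mitochondrial limit 2 calls were left, Hif1a and Aldoc, while Ldha was at -0.10 (edgeR adjusted p = 0.823), Egln3 at 0.81 (edgeR adjusted p = 0.42), Ero1l at -0.97 (edgeR adjusted p = 0.253) and Pkm at 0.55 (edgeR adjusted p = 0.0892). DESeq2 did not call Ldha (adjusted p = 0.0562), Ero1l (adjusted p = 0.0767) or Pkm (adjusted p = 0.307). The Th2 markers Gata3, Il13, Il5 and Il1rl1 summed to 156 to 258 CPM in Cxcr5-positive cells and to 646 to 1418 CPM in references, and their part in the differences was not tested.

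Pgam2 moved with Aldoc: it had 49 UMIs in Cxcr5-positive cells and 23 in the 6 to 8 times more numerous references. This was 21.9 ± 5.05 against 1.51 ± 0.814 CPM (3.90 ± 0.39, edgeR adjusted p = 9.56e-06). Pgam2 was scarce in the references, so it could meet the count limit through the Cxcr5-positive sums alone. It made up 9.39 ± 3.08% of Pgam1 and Pgam2 UMIs against 0.656 ± 0.185% in T cells without Cxcr5 UMIs. Ldhb also rose, by 0.82 ± 0.22 (edgeR adjusted p = 0.0276). Of 18 further hypoxia genes 1 rose, Ddit4 (0.86 ± 0.24), and 3 fell, Bhlhe40 (-1.37 ± 0.13), Epas1 (-1.36 ± 0.20) and Anxa2 (-0.77 ± 0.14). In the Tfh sort, where every cell had been sorted on CXCR5 protein, 74, 97 and 63 cells had 2 or more Cxcr5 UMIs, and none of 24 members was called by edgeR or by DESeq2. There edgeR called 0.296% of all genes, 0.0185% higher and 0.277% lower.

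**Figure D4:**
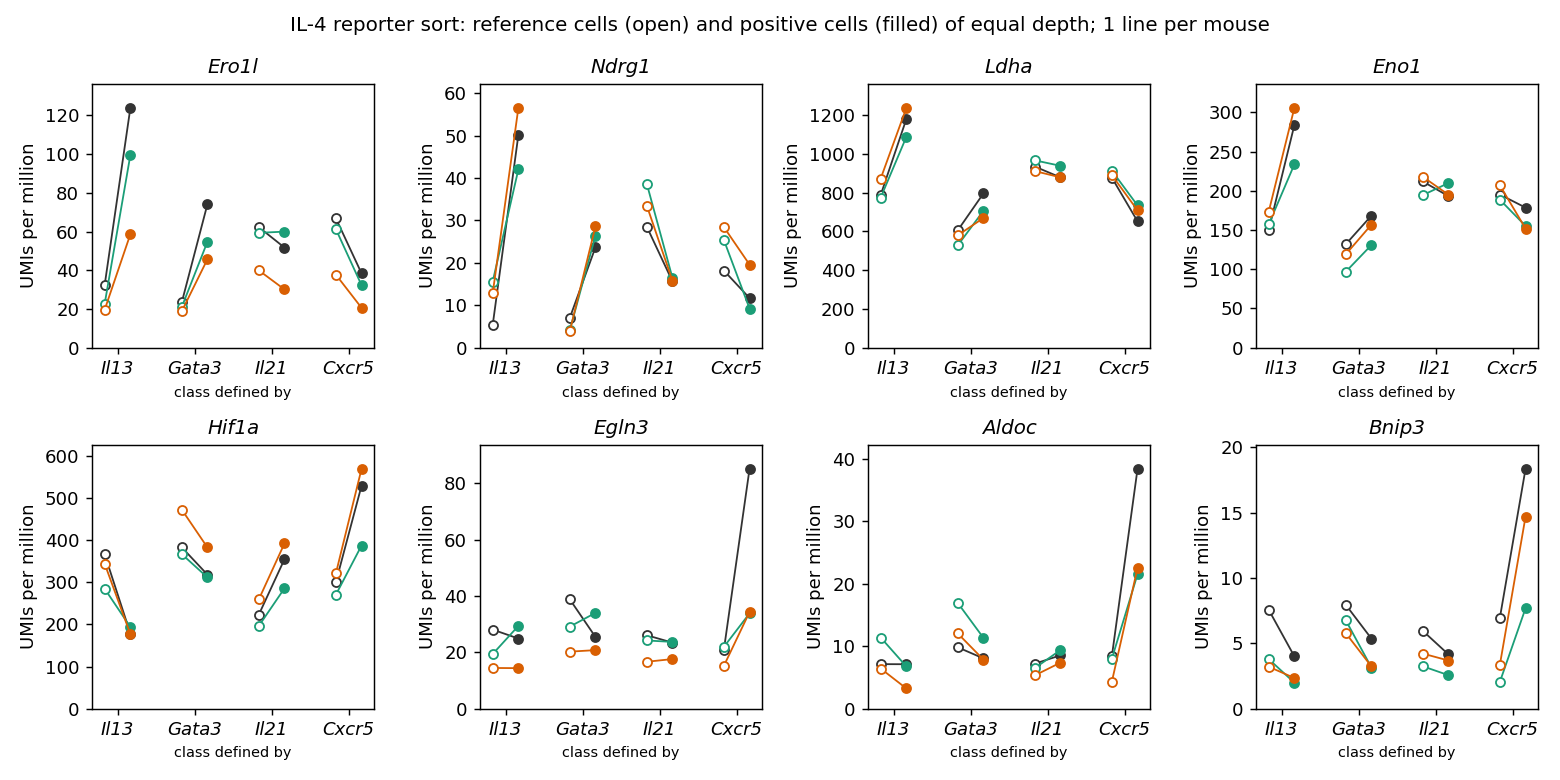
Levels (CPM, 1 line per mouse) of 8 genes in the reporter sort, in positive cells (filled) and references of equal depth (open), for Il13, Gata3, Il21 and Cxcr5. Ero1l and Ndrg1 rise from reference to positive in all mice for Il13 and Gata3, Hif1a falls for Il13 and Gata3 and rises for Il21 and Cxcr5, and Aldoc, Egln3 and Bnip3 rise for Cxcr5.

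Foxp3, the regulator of regulatory T cells, was found in 37, 25 and 12 cells of the Tfh sort. Of 23 members 2 were called, both higher, beside 2.58% of all genes, 1.63% higher and 0.947% lower. Slc16a3, the lactate exporter MCT4, was at 84.2, 87.5 and 39.1 CPM in Foxp3-positive cells and at 14.4, 29.9 and 21.0 CPM in references (1.88 ± 0.35, edgeR adjusted p = 0.000976), while Slc16a1 was not called (0.09 ± 0.40, edgeR adjusted p = 0.969). Eno1 was at 615, 518 and 743 against 446, 443 and 434 CPM (0.47 ± 0.13, edgeR adjusted p = 0.0428). The depths of mouse 1 were not well matched, with a median of 6205 UMIs in Foxp3-positive cells and 5140 in references. Both sets of groups stood apart, but the Slc16a3 call was lost without mouse 1 (1.37, edgeR adjusted p = 0.21) and without mouse 2 (2.09, edgeR adjusted p = 0.052). That of Eno1 was lost without mouse 1, 2 or 3 (edgeR adjusted p = 0.22, 0.12 and 0.23). Cycling cells made up 37.8%, 40.0% and 33.3% of the Foxp3-positive cells and 31.5%, 25.2% and 32.5% of their references. Without cycling cells neither gene was called (Eno1 0.05, edgeR adjusted p = 0.97; Slc16a3 1.33, edgeR adjusted p = 0.54). The reporter sort had 11, 6 and 7 Foxp3-positive cells, too few in 2 of the mice for a sum, and was not tested.

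In the cycling T cells that could be matched for depth, the members were called about as often as all genes. Matching kept 65, 76 and 60 of 120, 138 and 85 cycling cells of the Tfh sort. The median of the cells kept was 5902, 5249 and 5905 UMIs, against 7871.5, 7828.5 and 7267 over all cycling cells. Of 20 members tested in the Tfh sort, 5 were called, 3 higher and 2 lower, beside 24.2% of all genes, 12.3% higher and 11.9% lower. DESeq2 called 0 members for cycling in either sort. Tpi1 was at 318, 393 and 392 against 227, 248 and 263 CPM (0.58 ± 0.13, edgeR adjusted p = 0.000232) and Gapdh at 1921, 1862 and 2063 against 1619, 1629 and 1707 CPM (0.24 ± 0.06, edgeR adjusted p = 0.000988), with the groups apart for both. DESeq2 gave adjusted p of 0.0727 for Tpi1 and 0.177 for Gapdh. Gapdh was also not called at a limit of 1 cycling UMI (0.089, edgeR adjusted p = 0.374), at the 5% mitochondrial limit (0.15, edgeR adjusted p = 0.0793) or at a hashtag ratio of 5 (0.16, edgeR adjusted p = 0.0541). Pkm rose by 0.21 ± 0.06 (edgeR adjusted p = 0.00985), a call lost without mouse 2 (0.10, edgeR adjusted p = 0.42). Aldoa was lower, at 836, 942 and 998 against 1070, 1055 and 1147 CPM (-0.24 ± 0.07, edgeR adjusted p = 0.012), which was lost without mouse 1 (-0.17, edgeR adjusted p = 0.14) or mouse 3 (edgeR adjusted p = 0.052) and turned to 0.0047 without depth matching. Aldoc was not called (edgeR adjusted p = 0.0995). Bnip3l was lower in 2 of 3 mice (-0.45 ± 0.17, edgeR adjusted p = 0.0385), a call lost without mouse 1 (edgeR adjusted p = 0.41) or 2 (edgeR adjusted p = 0.32).

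In the reporter sort 4 of 28 members were called for cycling, 2 higher and 2 lower, beside 14.9% of all genes, 8.94% higher and 5.94% lower. Matching kept 135, 145 and 142 of 243, 271 and 305 cycling cells there. The median of the cells kept was 9900, 8689 and 8438.5 UMIs, against 14911, 15848 and 17253 over all cycling cells. Tpi1 was again higher, at 197, 185 and 175 against 148, 109 and 176 CPM, in 2 of 3 mice (0.38 ± 0.11, edgeR adjusted p = 0.00836; 0.20, edgeR adjusted p = 0.30 without mouse 2). Bnip3l was lower in each mouse, at 111, 108 and 115 against 164, 139 and 138 CPM (-0.40 ± 0.11, edgeR adjusted p = 0.00448), and was not called without mouse 1 (edgeR adjusted p = 0.11). Slc16a3 was at 17.9, 10.5 and 10.9 against 6.39, 5.93 and 6.33 CPM (1.06 ± 0.37, edgeR adjusted p = 0.0396), and lost its call without any 1 mouse (edgeR adjusted p = 0.33, 0.065 and 0.08). Hk2, the inducible hexokinase, was lower with overlap (-0.82 ± 0.26, edgeR adjusted p = 0.0244), lost its call without mouse 1 (-0.47, edgeR adjusted p = 0.47) or mouse 3 (edgeR adjusted p = 0.062), and turned to 0.036 without depth matching. Hk1 was not called (-0.29 ± 0.15, edgeR adjusted p = 0.226). Serine and one-carbon synthesis, which branches from glycolysis at 3-phosphoglycerate, had 4 of 8 tested genes higher in cycling cells of the reporter sort and 2 of 7 in the Tfh sort. Phgdh rose by 0.49 ± 0.10 (edgeR adjusted p = 0.000332) and 0.97 ± 0.14 (edgeR adjusted p = 1.56e-07) in the 2 sorts, and Mthfd2, a mitochondrial folate enzyme, by 0.53 ± 0.14 and 0.70 ± 0.16.

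B cells had less of the module than T cells of the same mouse and depth. In the Tfh sort, with 209, 185 and 168 B cells, 15 of 23 members tested were lower and none higher, where 36.8% of all genes were called, 19.8% higher and 17% lower. The median member differed by -0.53, and the median of all genes by 0.01. In the reporter sort, with 71, 53 and 126 B cells, 8 of 25 were lower and none higher, where 22.9% of all genes were called, 11.6% higher and 11.3% lower, and the medians were -0.46 and 0.00. At equal depth the 16 enzymes summed to 4215 ± 473 CPM in B cells and 6132 ± 165 CPM in T cells of the Tfh sort, with the groups apart. In the reporter sort they summed to 3668 ± 905 against 4352 ± 566 CPM, lower in each mouse but with overlapping groups. Unmatched for depth, the 16 enzymes were 0.397 ± 0.0652% of B-cell UMIs in the Tfh sort and 0.351 ± 0.0957% in the reporter sort.

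Among the called members the largest differences included the sensing genes. Hif1a was at 97.3, 147 and 134 CPM in Tfh-sort B cells and at 416, 391 and 421 CPM in T cells (-1.70 ± 0.13, edgeR adjusted p = 4.58e-09), and at 109, 96.5 and 162 against 303, 293 and 302 CPM in the reporter sort (-1.25 ± 0.15, edgeR adjusted p = 5.18e-05). Egln3 was at 12, 19.2 and 19.8 against 48.5, 52.9 and 61.9 CPM (-1.67 ± 0.25, edgeR adjusted p = 2.62e-05), and in the reporter sort at 3.47, 3.22 and 5.16, on 10 UMIs, against 21.5, 31.7 and 16.7 CPM (-2.16 ± 0.39, edgeR adjusted p = 0.00114). Groups were apart in each case. Egln1 could be tested in the reporter sort, where it differed by -1.0 ± 0.20 (edgeR adjusted p = 0.00232).

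Of the enzymes, Hk1, the hexokinase that binds mitochondria, was at 18.0, 16.5 and 15.8 against 53.4, 56.7 and 37.1 CPM (-1.58 ± 0.25, edgeR adjusted p = 5.32e-05) in the Tfh sort and at 17.4, 16.1 and 19.9 against 44.4, 45.7 and 52.7 CPM (-1.40 ± 0.22, edgeR adjusted p = 0.000424) in the reporter sort. Hk2 was called in neither (0.18 ± 0.29 and 0.60 ± 0.36), so that its share of hexokinase UMIs was 54.2 ± 4.32% and 44.0 ± 13.5% in B cells, on 39 and 43 UMIs, against 21.5 ± 2.03% and 21.7 ± 2.43% in T cells. Pkm was at 614, 783 and 587 against 1295, 1289 and 1273 CPM (-0.96 ± 0.08, edgeR adjusted p = 3.32e-08), and in the reporter sort differed by -0.59 ± 0.12 (edgeR adjusted p = 0.0031). Ldha fell by 0.53 in each sort (edgeR adjusted p = 1.17e-05 and 0.00454). Pfkp fell by 0.86 and 0.57 (edgeR adjusted p = 0.00028 and 0.0358). Pfkl was not called in either sort, and the reporter-sort Pfkp call was lost without mouse 2 (-0.54, edgeR adjusted p = 0.078) or 3 (-0.35, edgeR adjusted p = 0.41).

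The Tfh sort alone called Gapdh (-0.53 ± 0.07, edgeR adjusted p = 1.22e-05), Gpi1 (-0.52 ± 0.11), Aldoa (-0.40 ± 0.08), Bnip3l (-0.78 ± 0.16), Higd1a (-0.44 ± 0.11), P4ha1, a collagen prolyl hydroxylase (-0.96 ± 0.33), and Aldoc (-0.80 ± 0.30), each with the groups apart, and Tpi1 (-0.54 ± 0.14) and Pdk1 (-0.67 ± 0.25) with overlap. Whether these differ between the sorts was not tested. The calls of Pdk1 and Aldoc held in 2 of 16 and 3 of 15 alternatives, and each was lost without any 1 mouse (edgeR adjusted p = 0.13, 0.23 and 0.10 for Pdk1 and 0.27, 0.18 and 0.055 for Aldoc). P4ha1 was lost without mouse 1 (edgeR adjusted p = 0.16) or 3 (edgeR adjusted p = 0.12) and Tpi1 without mouse 3 (-0.38, edgeR adjusted p = 0.11). Ero1l was called in the reporter sort alone, with overlap (-0.73 ± 0.25, edgeR adjusted p = 0.0494), and was lost without mouse 1 (edgeR adjusted p = 0.14) or 2 (edgeR adjusted p = 0.15). Summed T-cell markers were at 684 to 1036 CPM in Tfh-sort B cells against 3801 to 4178 in T cells, and at 833 to 1727 against 3009 to 3706 in the reporter sort. Plasma cell markers (Jchain, Sdc1 and Xbp1) were at 1576 to 6074 against 180 to 191 CPM, and at 254 to 2419 against 81.7 to 85.7, and their part in the differences was not tested. With the B cells that held a Cd3 UMI left out, 18 of the 21 calls with a value were kept, the exceptions being Pdk1 in the Tfh sort and Ero1l and Pfkp in the reporter sort. Aldoc and P4ha1 in the Tfh sort could not be tested that way. Several differences were larger without those cells. In the Tfh sort they were -4.21 for Egln3, -2.86 for Hk1, -2.38 for Hif1a, -1.45 for Pkm, -1.32 for Pfkp and -1.11 for Gapdh. In the reporter sort they were -2.79 for Hif1a, -2.14 for Hk1 and -1.81 for Egln1. That of Pdk1 in the Tfh sort was smaller, at -0.56.

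Genes beside the module went both ways in B cells. Myc, a driver of cell growth and glycolysis genes, was higher, at 1666 ± 258 against 309 ± 56.6 CPM in the Tfh sort (2.43 ± 0.08, edgeR adjusted p = 4.13e-14) and 443 ± 181 against 77.4 ± 5.23 CPM in the reporter sort (2.39 ± 0.17, edgeR adjusted p = 2.76e-07). Slc16a6 (2.40 ± 0.28 and 1.93 ± 0.22), Gpd2, of the glycerol phosphate shuttle (1.24 ± 0.27 and 1.44 ± 0.26), and Siah2, a ubiquitin ligase of prolyl hydroxylases (0.77 ± 0.13 and 1.30 ± 0.18), were higher in both sorts, and Ldhb (-2.83 ± 0.40 and -2.01 ± 0.35) and the mutarotase Galm (-2.66 ± 0.43 and -1.87 ± 0.49) lower. Of the pentose phosphate genes 4 of 9 rose in B cells of the reporter sort, among them Pgls (0.53 ± 0.13), Tkt (0.50 ± 0.13), Pgd (0.66 ± 0.21) and Rpia (0.70 ± 0.22). Tfh-sort B cells had none of 8 higher and 1 fell, Prps2 (-0.97 ± 0.21).

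**Figure D5:**
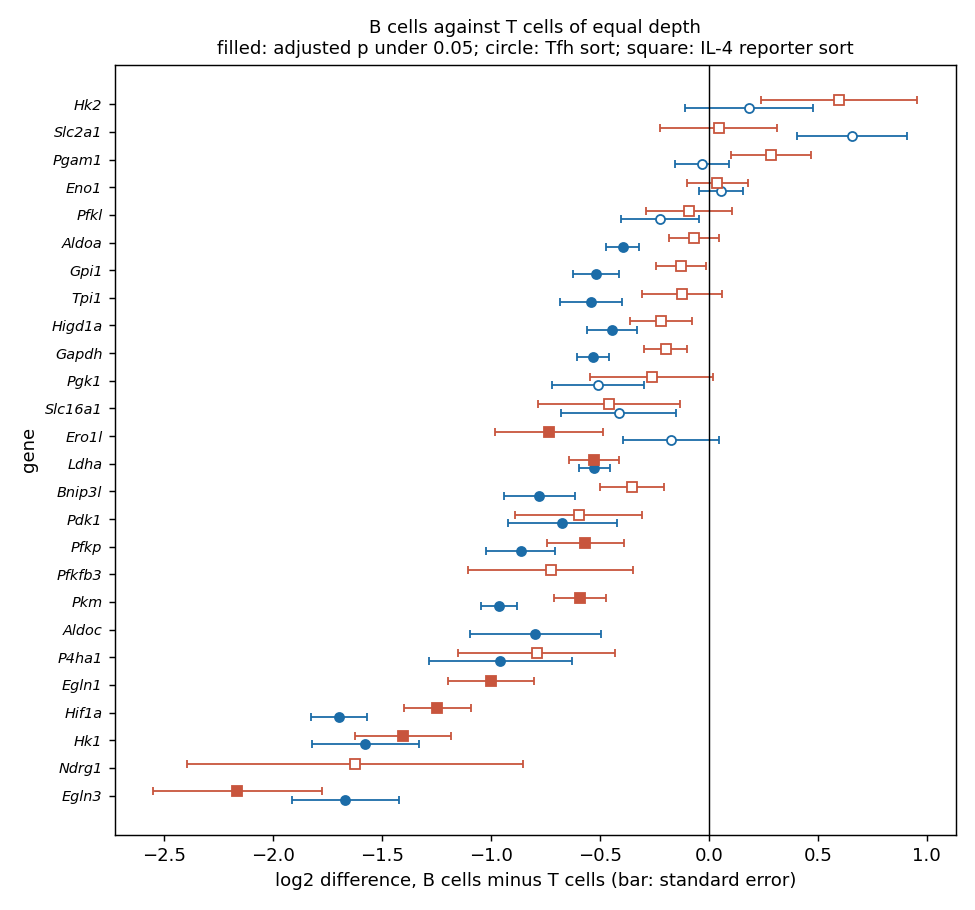
Differences (log2, B cells minus T cells of the same mouse and depth, ± SE) of the members, circles for the Tfh sort and squares for the reporter sort, filled where the edgeR adjusted p is under 0.05. All filled points lie below 0, and in both sorts Hif1a, Egln3 and Hk1 are the lowest of them.

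Over the 13 T-cell comparisons that could be made, 44 of 339 tests of members passed, 30 higher and 14 lower. That is 13% of them, beside 7.73% of 92566 tests over all genes in the same comparisons, which share T cells. They fell on 18 members, of which 5 (Aldoa, Ldha, Hif1a, Ero1l and Ndrg1) were higher in some classes and lower in others. Ero1l and Hif1a were each called in 5 of them and Ndrg1 in 4. Ero1l rose with Il13 in both sorts and with Il4 and Gata3 in the reporter sort and fell with Cxcr5 there, whereas Hif1a fell with Il13 and Gata3 in the reporter sort and rose with Il21 in both sorts and with Cxcr5 in the reporter sort. A further 13 members were tested and passed in none: Slc2a1, Slc16a1, Hk1, Gpi1, Pfkl, Pfkm, Pfkp, Pgk1, Eno3, Pfkfb3, Egln1, P4ha1 and Higd1a. Low counts limit that statement for Pfkm and Eno3, tested in 2 comparisons each, and for Egln1, tested in 6.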

How the data were processed

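Cells were captured on the 10x droplet platform, with 3 hashtagged mice in each of 2 lanes. The deposited values are raw UMI counts per gene and barcode, which the authors made with Cell Ranger (2.2.0 per the submitters' processing notes, 3.0.2 per the file headers of the reporter sort). Hashtag antibody counts were deposited with them. Cells with at least 500 genes and at most 10% mitochondrial UMIs were kept, and a cell was given to a mouse where its top hashtag had at least 10 counts and 3 times the second. No doublet caller was run.

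Reference cells were drawn within each mouse to the positive cells' UMI totals in 10 bins, at up to 10 per positive cell. Positive cells in bins short of reference cells were left out of the sums. UMIs were summed per mouse and class where at least 10 cells were there. Sums were tested in edgeR 4.0.16 (R 4.3.3; quasi-likelihood, TMM, filterByExpr with a minimum count of 10) with the mouse as a block, and p-values were adjusted by Benjamini-Hochberg over all genes tested, with 0.05 as the threshold. Both sums of a pair come from the same mouse, which is where the pairing comes from; the correlations of their deviations ran from -0.123 to 0.649, with a median of 0.0986. Total UMIs per mouse were 3378446 to 15123654. With the mouse as a block, p-values measure the spread of the within-mouse differences over 3 mice of 1 lane.

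The 32 genes and the lists beside them were chosen with earlier results of these data known. Members were named with values where they passed or where an isoform partner did, and of each other list up to 4 genes with the smallest adjusted p per comparison, although lower-ranked genes that completed a count were also named after their values were seen. Alternatives were DESeq2 1.42.0, RLE scaling, no low-count filter, no block, each mouse left out, no depth matching, thinning to 2000 UMIs, a second draw, another UMI limit, stricter mitochondrial and hashtag limits, and leaving out cycling cells, cells with macrophage transcripts, Foxp3-positive cells or B cells with a Cd3 UMI. Promoter sequences are RefSeq's on GRCm38.p6.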

Additional observations from a re-analysis of the deposited data

Results flagged for a closer look

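Tpi1 differed in opposite directions with Il13 in the 2 sorts. Its difference between Il13-positive cells and references of equal depth was -0.46 (log2) in the Tfh sort, lower in 3 of 3 mice, and 0.36 in the reporter sort, higher in 3 of 3 mice. The first was not called (edgeR adjusted p = 0.18) and the second was (edgeR adjusted p = 0.0299). The difference between the sorts was not tested, since strain, chemistry and run change with the sort. Cycling cells made up 11.5%, 18.2% and 18.2% of the Il13-positive cells of the Tfh sort and 26.2%, 30.3% and 17.3% of their references, and in the reporter sort 36.7%, 44.8% and 54.7% against 29.8%, 32.8% and 50.7%. Without cycling cells the reporter-sort value was 0.34 (edgeR adjusted p = 0.229). For the Tfh sort the fit without cycling cells called 2 of 23 members, 2 higher and 0 lower, and its Tpi1 value is not given here. Tpi1 was higher in cycling cells at equal depth in both sorts, by 0.58 ± 0.13 and 0.38 ± 0.11.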

How the results depend on the processing

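For the 67 calls of members, 1039 values were obtained under the alternatives; 823 stayed on the same side of the threshold in the same direction, 210 were no longer called and 6 changed sign. DESeq2 kept 34 of 66 calls, the fit with no replicate block 45 of 67, RLE scaling 65 of 67, and the fits without mouse 1, 2 or 3 kept 50, 49 and 52 of 67. The values that changed sign were Aldoa with cycling in the Tfh sort (0.0047 without depth matching), Pgam1 in the reporter sort with Il4 (0.15 without depth matching, 0.13 thinned) and with Gata3 (0.68 and 0.18), and Hk2 with cycling there (0.036 without depth matching). Why they changed was not tested.

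Counts of called members that moved by over 1.5 times are given here in the order of the classes named. The share of all genes called under each alternative is not set beside them. The counts are thus no result about the members, and tell only how their calls depend on the processing. Without depth matching the Tfh sort had 6 (Il13), 4 (Il4), 4 (Il21), 11 (Gata3), 2 (Cxcr5), 4 (Foxp3) and 17 (cycling), and the reporter sort 23 (Il13), 14 (Il4), 9 (Il21), 20 (Gata3), 12 (Cxcr5) and 22 (cycling). Thinned to 2000 UMIs, the Tfh sort had 2 (Il13), 2 (Il4), 1 (Cxcr5), 1 (Foxp3) and 10 (cycling), and the reporter sort 8 (Il4), 5 (Il21) and 15 (cycling). With no replicate block, the mouse pairing left out, there were 2 (Il13) and 2 (cycling) in the Tfh sort and 1 (Il4), 1 (Il21), 4 (Cxcr5), 1 (cycling) and 4 (B cells) in the reporter sort. DESeq2 gave 0 (Il4, Foxp3 and cycling) in the Tfh sort and 6 (Il13), 1 (Il4), 3 (Gata3), 4 (Cxcr5) and 0 (cycling) in the reporter sort. With no low-count filter the Tfh sort had 2 (Il13), 2 (Il4) and 1 (Foxp3), and with the other UMI limit 2 (Il13) and 1 (cycling). The 5% mitochondrial limit gave 2 (Il13), 2 (Il4) and 3 (cycling), then 3 (Gata3), 2 (Cxcr5) and 0 (cycling) in the reporter sort. Without cycling cells there were 2 (Il13), 3 (Il21) and 0 (Foxp3), then 6 (Il13), 6 (Il4) and 1 (Il21) in the reporter sort. A second draw gave 2 (Tfh sort, Il4) and 2 (reporter sort, cycling). A hashtag ratio of 5 gave 0 (Il4), 2 (Il21), 1 (Foxp3) and 1 (cycling), then 12 (Cxcr5) and 2 (cycling) in the reporter sort. Without macrophage transcripts there were 3 (Il4) and 3 (cycling), then 5 (Gata3) and 2 (cycling), and without Foxp3-positive cells 2 (Il21), then 11 (Cxcr5) and 1 (cycling).

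With each mouse left out in turn, the Tfh sort ran from 0 to 2 (Il13), 1 to 2 (Il4), 1 to 2 (Il21), 0 to 0 (Gata3), 0 to 1 (Cxcr5), 0 to 2 (Foxp3), 3 to 7 (cycling) and 12 to 13 (B cells), and the reporter sort from 5 to 11 (Il13), 1 to 2 (Il4), 2 to 2 (Il21), 5 to 7 (Gata3), 7 to 8 (Cxcr5), 1 to 3 (cycling) and 8 to 9 (B cells). Over all genes, calls in these fits of the Tfh sort numbered 39 to 278 (Il13), 210 to 323 (Il4) and 201 to 271 (Il21). There Gata3 had 24 to 93, Cxcr5 31 to 36, Foxp3 48 to 203, cycling 846 to 903 and B cells 1624 to 1924. In the reporter sort they numbered 696 to 1733 (Il13), 120 to 254 (Il4) and 163 to 524 (Il21). There Gata3 had 521 to 774, Cxcr5 609 to 1027, cycling 834 to 923 and B cells 1090 to 1759. No value could be had for Foxp3 in the reporter sort, for Foxp3 in the Tfh sort at the other UMI limit, or for reporter-sort B cells at the 5% mitochondrial limit. Depth limited Vegfa, Pfkm and Eno3 most.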
